A study of Mus musculus with 6 samples.

Results

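The respiratory chain genes described here were all genes of the array whose symbol names a nuclear encoded subunit of complexes I to V, cytochrome c, or a complex I assembly factor. They were chosen by symbol alone, from probe sets with a single gene symbol in the platform annotation matching Nduf, Sdha to Sdhd, Uqcr, Cox4 to Cox8, Cycs, Cyc1 or Atp5. The rule gave 92 genes on 184 probe sets, out of 18193 genes with a probe set of their own. Each gene was read from the probe set with the highest mean over the 6 arrays. To be tested, a probe set had to lie above its array's median on 3 or more of the 6 arrays, which left 85 of the 92 members and 10807 genes. The 7 members not tested were Ndufb4, Cox4i2, Cox7a1, Cox7b2, Cox8b, Cox8c and Ndufa4l2. Another 10 probe sets carried several symbols, with a matching symbol among them, and were left out. For 8 matching symbols, among them Ndufa11 and Ndufs6, these were the only probe sets, and those genes were not analysed here.

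Myeloid cells came from the marrow of femurs and tibias. The donors were female HdcGFP mice (C57BL/6 background), so all 6 samples carried the same reporter for Hdc, the gene of the histamine-forming enzyme histidine decarboxylase. CD11b+Gr1+ cells with high reporter signal (HdcGFP+/hi, here GFP_plus, 3 arrays) were compared with those of low or no signal (HdcGFP-/lo, here GFP_min, 3 arrays). The description of GFP_min replicate b reads Gr1- where its sorted-cell label reads Gr1+. The labels give neither age nor separate mice for the samples, so the p-values rest on the spread between samples that may be technical repeats.

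The respiratory chain is a row of large protein assemblies in the inner mitochondrial membrane. Complexes I and II take electrons from NADH and succinate, complex III passes them to cytochrome c, and complex IV hands them to oxygen. The proton gradient built on the way drives complex V, the ATP synthase. Most subunits are encoded in the nucleus, a few in mitochondrial DNA. Neutrophils are known for few mitochondria and for drawing most of their ATP from glycolysis, while monocytes and macrophages rely more on respiration.

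GFP_plus cells had lower transcripts of most respiratory chain genes, by modest amounts. Of the 85 tested members, 58 were lower in GFP_plus (68.2%) and 1 was higher (1.18%), at an adjusted p under 0.05. Over all genes tested, 27.6% were lower and 21.0% higher. In 64 members all GFP_plus arrays lay below all GFP_min arrays, and in 1 they lay above. The same held for 32.1% and 27.2% of all genes. The median difference, GFP_plus minus GFP_min, was -0.36 on the log2 scale over tested members, with a range from -1.82 to 0.15, and 0.0024 over all genes. Of the called falls, 28 exceeded 0.5 log2 units and 6 exceeded 1. Only Ndufaf6 had passed the filter through 1 group alone, being below the array medians in GFP_plus. Ndufaf5 also needed its GFP_min arrays to pass. It read 2.85, 2.87 and 2.61 in GFP_plus, where the array medians were 2.86, 2.85 and 2.88. With the filter on all 6 arrays, 57 of 83 members were lower and 1 higher, where 28.0% of all genes were lower and 22.8% higher. With no filter, 57 of the 92 members were lower and 0 higher by limma, where 15.8% of all genes were lower and 12.1% higher. The member median was then -0.34. Without GFP_min replicate b, 56 of 85 were lower and 1 higher, where 25.3% of all genes were lower and 19.3% higher.

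The average over tested members was 10.35, 10.41 and 10.37 on the GFP_min arrays, in the order a, b, c, and 9.96, 9.91 and 9.98 on the GFP_plus arrays. The arrays of each group lay close together and the groups did not overlap. These values are log2 levels on the deposited scale, and how far below zero the differences lie depends on that scale. Centring each array on the median of its tested probe sets added 0.20 to every difference, centring on 41 cytosolic ribosomal protein genes added 0.54, and centring on the bacterial poly-A control RNAs took away 0.41. With the first centring 37 tested members were lower and 7 higher, where 19.3% of all genes were lower and 41.4% higher. With ribosomal centring 12 members were lower (14.1%) and 41 higher (48.2%), where 11.1% of all genes were lower and 68.6% higher, so the share of members lower was near that of all genes. With poly-A centring 85 were lower and 0 higher, where 55.8% of all genes were lower and 3.89% higher. The median over members was -0.16, 0.17 and -0.77 under these centrings, and in each it lay 0.36 below the median over all genes. With quantile normalization 57 members were lower and 0 higher, where 24.8% of all genes were lower and 25.0% higher, and the member median was -0.36. The sign of most falls below is therefore that of the deposited scale. Since a centring shifts every gene alike, the distance of the members from all genes is not changed by it.

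**Figure D1:**
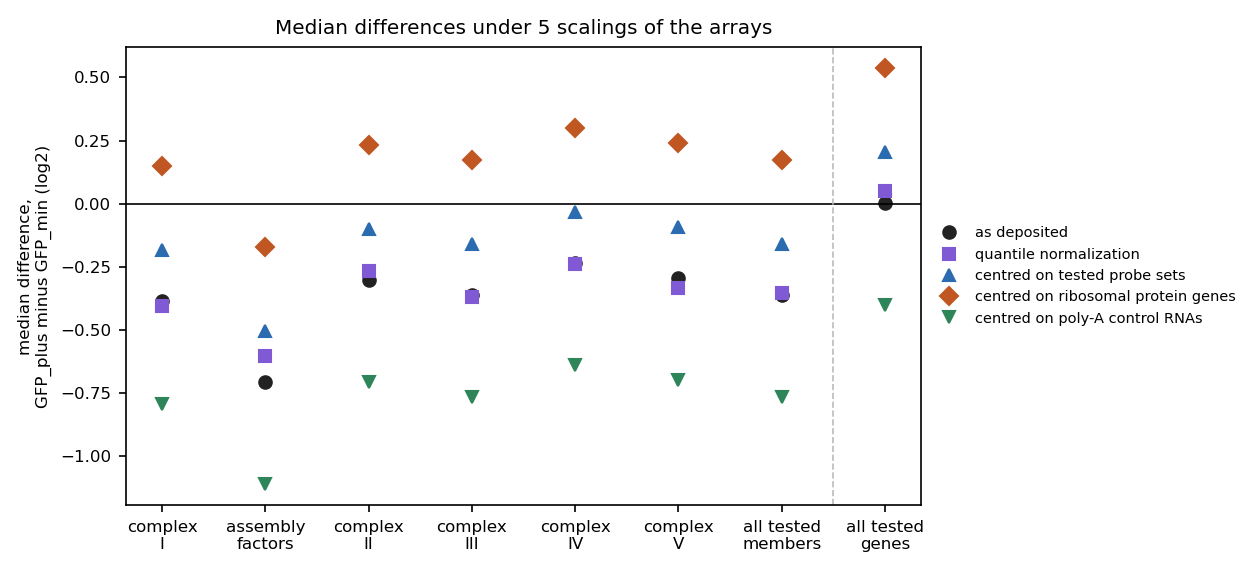
Median difference between the groups (GFP_plus minus GFP_min, log2) for each complex, for the 85 tested members and for all tested genes, under 5 scalings of the arrays given as symbols. With ribosomal centring every complex lies above 0 except the assembly factors, and under every scaling the members lie below all tested genes.

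The sorted groups also differed in markers of other cells and in some control probe sets. Of 18 tested monocyte and macrophage markers, 16 were lower in GFP_plus, with a median difference of -5.10. Their mean level ran from 11.25 to 11.28 in GFP_min and from 7.39 to 7.48 in GFP_plus. Of 13 neutrophil markers 8 were higher and none was lower (means 12.52 to 12.57 against 13.05 to 13.14), although their median of 0.30 turned to -0.11 with poly-A centring. The gap between the 3′ and 5′ Gapdh control probe sets was 0.26 to 0.37 in GFP_min and 0.59 to 0.66 in GFP_plus. That of beta-actin was 0.061 larger in GFP_plus on average but overlapped, at 0.79 to 0.83 in GFP_min and 0.82 to 0.90 in GFP_plus. Whether RNA quality differed was not tested. The poly-A control RNAs had means of 5.41 to 5.64 in GFP_min and 5.84 to 5.95 in GFP_plus. The part of these differences in the respiratory chain result was not tested. In such sorted bulk samples, fewer cells of a type and less RNA per cell cannot be told apart.

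**Figure D2:**
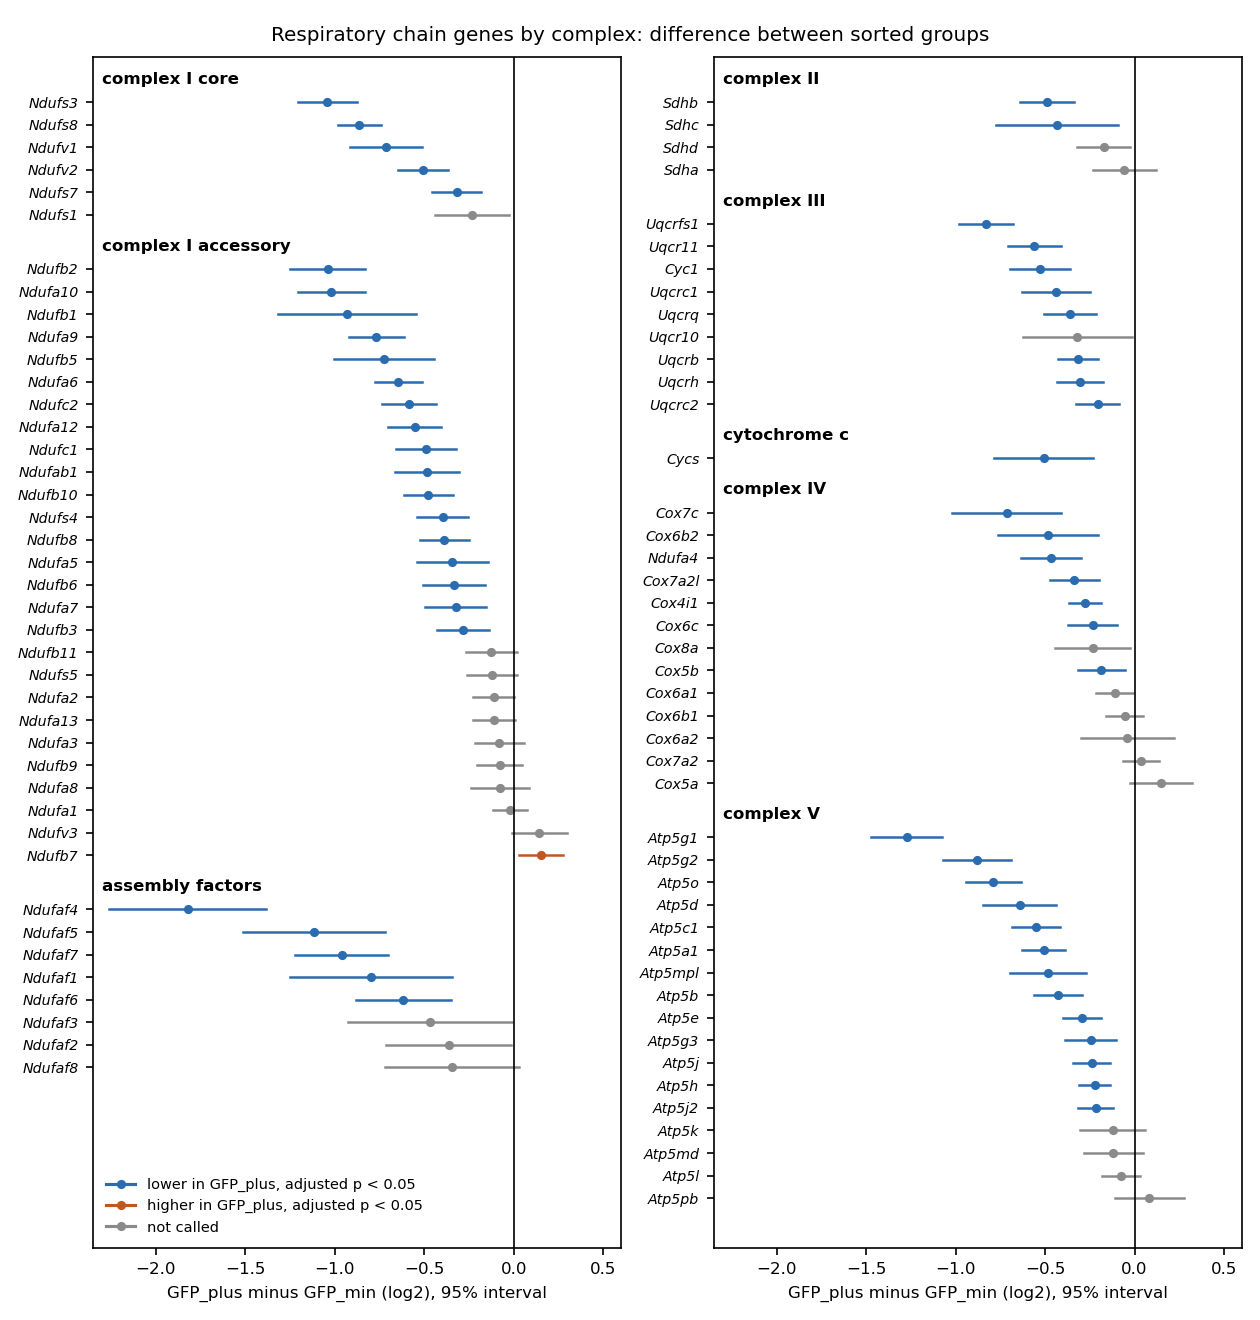
Difference between the groups (GFP_plus minus GFP_min, log2) for each of the 85 tested members, ordered by complex and size, with 95% intervals from limma. Blue points are the 58 members lower in GFP_plus, the orange point is Ndufb7, higher in GFP_plus, and grey points are the 26 members not called.

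Complex I, the NADH dehydrogenase, was lower in GFP_plus in 22 of its 33 tested subunit genes, and 1 was higher (median -0.39). Over all tested genes 27.6% were called lower, 21.0% higher, and 32.1% lay lower without overlap. Among the core subunits, which carry the flavin and the iron-sulfur clusters, 5 of 6 tested genes were lower and 0 higher. Their median was -0.61, and in all 6 the groups did not overlap. Ndufs3, a subunit of the peripheral arm that is needed early in assembly, read 9.98, 10.12 and 10.06 in GFP_min and 9.05, 8.98 and 9.02 in GFP_plus. Its GFP_plus arrays all lay about a whole log2 unit lower, a 2.06-fold difference (log2 -1.04, SE 0.07, adjusted p = 3.0e-06).

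Ndufs8, which holds iron-sulfur clusters on the way to ubiquinone, read 11.48, 11.54 and 11.59 against 10.70, 10.64 and 10.69. It was 1.82-fold lower (log2 -0.86, SE 0.05, adjusted p = 1.5e-06), and 5 of its 6 tested probe sets were lower. Ndufv1, the subunit that binds NADH and the flavin, read 9.88, 10.07 and 9.99 against 9.38, 9.11 and 9.30, a difference of -0.71 (SE 0.09). Ndufv2, the iron-sulfur subunit beside it, differed by -0.51 (SE 0.06), and Ndufs7, which carries the last cluster before ubiquinone, by -0.32 (SE 0.06). Ndufs7 and Ndufv2 turned to 0.22 and 0.029 with ribosomal centring. Ndufs1, the largest core subunit, read 9.97, 10.18 and 10.06 against 9.93, 9.65 and 9.91 and did not pass the test (-0.23, 95% interval -0.44 to -0.03, adjusted p = 0.065).

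The accessory subunits, which surround the core, held 17 lower, 1 higher and 9 genes not called among 27 tested, with a median of -0.34. Their share lower was 63.0%, against 27.6% of all tested genes. Ndufb2, a small subunit of the membrane arm, read 9.85, 10.06 and 9.79 in GFP_min and 8.89, 8.75 and 8.93 in GFP_plus. All its GFP_plus arrays were lower, by 2.06-fold (log2 -1.04, SE 0.09, adjusted p = 1.7e-05). Ndufa10, a membrane arm subunit, read 10.22, 10.30 and 10.30 against 9.26, 9.11 and 9.39, a 2.03-fold fall (adjusted p = 8.3e-06).

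Ndufa9, at the joint of the peripheral and membrane arms, was lower by 0.77 log2 units, with GFP_min arrays between 10.10 and 10.13 and GFP_plus arrays between 9.29 and 9.41. Ndufa6, which anchors an acyl carrier protein, differed by -0.65 and Ndufc2, a membrane arm subunit, by -0.59, the latter in 3 of 3 tested probe sets. The other accessory genes called lower differed by -0.93 (Ndufb1) to -0.28 (Ndufb3). The 9 not called lay between -0.12 (Ndufb11) and 0.14 (Ndufv3). For Ndufb11 this depended on the probe set, since 1 of the other 2 tested was called lower (-0.26, adjusted p = 0.013).

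Ndufb7, a subunit on the intermembrane space side, was the member called higher. It read 11.79, 11.89 and 11.77 in GFP_min and 12.02, 11.90 and 12.01 in GFP_plus, so the nearest arrays of the groups almost touched. The difference of 0.15 (SE 0.05, adjusted p = 0.044) was seen in 1 of 2 probe sets. The call was lost in 4 of the 6 fits without 1 array (without GFP_min a or c, or GFP_plus a or c), where the adjusted p ran from 0.112 to 0.156, and with poly-A centring the difference was -0.25.

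The complex I assembly factors Ndufaf1 to Ndufaf8 build the complex but are not part of it. They were lower in GFP_plus in 5 of 8 tested genes (62.5%, all genes 27.6%) and higher in 0. Their median was -0.71. Their signal ranged from dim to intermediate, with GFP_min means of 3.36 (Ndufaf6) to 9.46 (Ndufaf8). Their mean was 6.07, 6.33 and 6.15 in GFP_min and 5.38, 5.38 and 5.36 in GFP_plus. Ndufaf4, an early assembly factor, showed the largest fall of the tested members: 5.51, 5.57 and 5.86 against 3.73, 4.23 and 3.51, or 3.54-fold (log2 -1.82, SE 0.20, adjusted p = 5.4e-05). Even its highest GFP_plus array lay more than a log2 unit below its lowest GFP_min array. Ndufaf7, a methyltransferase of early assembly, differed by -0.96 (SE 0.12) and Ndufaf5, which hydroxylates a subunit, by -1.12 (SE 0.18), the latter with GFP_plus arrays of 2.61 to 2.87, close to the array medians of 2.85 to 2.88. Ndufaf1 differed by -0.80. Ndufaf6 was at least 1.41-fold lower, taking the array medians as the floor of GFP_plus (means 3.36 and 2.74). It had passed the filter through GFP_min alone, so its adjusted p of 0.0021 is not taken as support. Ndufaf5 would not have passed on its GFP_plus arrays, so its call is not taken as support either. Ndufaf2, Ndufaf3 and Ndufaf8 had differences of -0.36, -0.47 and -0.35 and did not pass the test.

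Complex II, the succinate dehydrogenase, divided into called and uncalled subunits. Of its 4 genes 2 were lower, with a median of -0.30, or -0.13 with the mean of each gene's probe sets. Sdhb, the iron-sulfur subunit, read 11.24, 11.31 and 11.21 in GFP_min and 10.73, 10.68 and 10.88 in GFP_plus. The groups were well apart, by 1.40-fold (log2 -0.49, SE 0.07, adjusted p = 0.00026). Sdha, the flavin subunit that oxidizes succinate, read 10.42, 10.47 and 10.42 against 10.44, 10.21 and 10.49. Its groups overlapped, with a difference of -0.06 (95% interval -0.23 to 0.12, adjusted p = 0.58). Of the membrane anchors, Sdhc differed by -0.43 (adjusted p = 0.042) and Sdhd by -0.17 (adjusted p = 0.056). The Sdhc call was not firm: its GFP_plus replicate b read 7.33 where the other two read 7.92 and 7.78, and without that array the difference was -0.26 (adjusted p = 0.114). It was lost in 5 of the 6 fits without 1 array, with a highest adjusted p of 0.135. Sdhb and Sdhc turned to 0.047 and 0.10 with ribosomal centring.

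Complex III, the cytochrome bc1 complex, had 8 of 9 tested genes lower in GFP_plus (88.9%, all genes 27.6%) and 0 higher. Its median was -0.36. Uqcrfs1, the Rieske iron-sulfur protein that takes electrons from ubiquinol, read 10.64, 10.76 and 10.63 in GFP_min and 9.79, 9.84 and 9.89 in GFP_plus. It was 1.78-fold lower with no overlap (log2 -0.83, SE 0.07, adjusted p = 7.8e-06). Cyc1, the cytochrome c1 that receives those electrons, differed by -0.53 (SE 0.07), with arrays of 9.89 to 10.03 against 9.37 to 9.48.

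Uqcr11, a small subunit, differed by -0.56, and Uqcrc1, a core protein of the matrix side, by -0.44. Uqcrq, Uqcrb and Uqcrh, the small subunits near the ubiquinone and cytochrome c sites, differed by -0.36, -0.32 and -0.30. Uqcrc2, the other core protein, had the smallest of the called falls in this complex (-0.21, adjusted p = 0.011). The call of this brightest probe set was lost without GFP_min replicate a (adjusted p = 0.0501), with the replicate block (0.0586), without the intensity trend (0.0854) and with centring on tested probe sets (0.966). The other tested probe set of Uqcrc2, which is dimmer, gave a larger fall (-0.40, adjusted p = 0.00099). Uqcr10 had arrays of 10.03 to 10.44 against 9.64 to 10.13, which overlap, and did not pass the test (-0.32, adjusted p = 0.082). Except for Uqcrfs1 and Uqcr11, the genes called lower in this complex turned positive with ribosomal centring, between 0.0059 (Cyc1) and 0.33 (Uqcrc2).

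The promoters of Cycs and of the genes for subunit c of the ATP synthase are shown here. NRF1, ERR and other factors of respiratory genes are known to act on such promoters. The subunit c genes, Atp5g1, Atp5g2 and Atp5g3, encode the same mature protein. Any link between a motif and the size of a gene's fall was not tested. Each line gives the 120 bases before the RefSeq start in the mouse assembly GRCm38.p6, read 5′ to 3′ on the minus strand, with motif matches in capitals.
Cycs, chr6:50566570-50566689: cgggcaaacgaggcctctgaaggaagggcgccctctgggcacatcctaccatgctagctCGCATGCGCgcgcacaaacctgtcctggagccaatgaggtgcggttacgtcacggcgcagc
Atp5g1, chr11:96075632-96075751: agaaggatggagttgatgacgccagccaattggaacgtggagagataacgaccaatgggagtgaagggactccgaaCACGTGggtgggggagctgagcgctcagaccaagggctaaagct
Atp5g2, chr15:102671048-102671167: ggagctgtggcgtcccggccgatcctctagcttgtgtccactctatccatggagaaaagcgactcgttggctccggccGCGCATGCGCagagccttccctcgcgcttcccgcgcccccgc
Atp5g3, chr2:73911327-73911446: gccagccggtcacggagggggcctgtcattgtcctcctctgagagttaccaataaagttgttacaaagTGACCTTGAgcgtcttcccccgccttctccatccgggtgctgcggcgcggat
The capitals mark an NRF1 match in Cycs, an E-box in Atp5g1, overlapping NRF1 matches on both strands in Atp5g2 and an ERR match on the opposite strand in Atp5g3. The capitals are letters found by a search, not measured binding.

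Cycs, the gene of cytochrome c, which shuttles electrons between complexes III and IV, read 11.39, 11.12 and 11.49 in GFP_min and 10.72, 11.10 and 10.65 in GFP_plus. The replicate b arrays were nearly level, and the groups just did not overlap. The difference was -0.51 (SE 0.12, adjusted p = 0.0079) and turned to 0.027 with ribosomal centring. This brightest probe set gave the smallest fall of the 3 tested for the gene. The next read 11.23, 11.25 and 11.30 against 10.24, 10.21 and 10.19, a difference of -1.05 (SE 0.06), and there replicate b was close to the other arrays of its group. The third gave -0.94. With the mean of the probe sets the difference was -0.83, so the value for Cycs depended on the probe set read.

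Complex IV, the cytochrome c oxidase, had 7 of 13 tested genes lower in GFP_plus (53.8%, all genes 27.6%) and 0 higher. Its median was -0.23. The median was -0.15 without GFP_min replicate b, and -0.055 with no filter, where the dim isoforms enter. Cox4i1, its largest nuclear encoded subunit, read 12.67, 12.68 and 12.65 in GFP_min and 12.43, 12.36 and 12.38 in GFP_plus. The arrays of each group were tight, and a 1.21-fold fall was called (log2 -0.28, SE 0.04, adjusted p = 0.00036). Ndufa4, first named as a complex I subunit and placed here, was lower by 0.47, with arrays of 11.17 to 11.21 against 10.58 to 10.88. Cox7a2l, which takes part in joining complexes III and IV, differed by -0.34, and 3 of its 3 tested probe sets were called lower. Cox7c differed by -0.71 on a dim probe set (means 5.30 and 4.59). With ribosomal centring Cox4i1, Ndufa4 and Cox7a2l turned to 0.26, 0.068 and 0.20.

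Cox5a, Cox6a1, Cox6b1 and Cox7a2 were not called by their brightest probe set. Cox5a, which binds the matrix side, read 12.43, 12.24 and 12.43 in GFP_min and 12.47, 12.68 and 12.39 in GFP_plus. Its groups overlapped, with an estimate of 0.15 (95% interval -0.03 to 0.32). Cox7a2 gave 0.04 (-0.06 to 0.14), Cox6b1 -0.06 (-0.16 to 0.05) and Cox6a1 -0.11 (adjusted p = 0.075). A second, dimmer probe set was called lower for Cox6a1 (-0.28, adjusted p = 0.0011) and for Cox6b1 (-0.21, adjusted p = 0.043). Cox8a gave -0.23 (adjusted p = 0.068).

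Complex IV also has isoforms known from heart, muscle, lung, testis or low oxygen. Of 8 such genes among the members, 6 were below the filter: Cox4i2, Cox7a1, Cox7b2, Cox8b, Cox8c and Ndufa4l2, with readings between 1.74 and 2.99 on all arrays. Cox6a2, the muscle form, was tested at 3.09 to 3.39 and overlapped between groups. Cox6b2, the testis form, read 5.30, 5.24 and 5.30 against 4.77, 4.80 and 4.82. This difference of -0.48 (adjusted p = 0.011) was lost with quantile normalization (-0.28, adjusted p = 0.0959).

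Complex V, the ATP synthase, had 13 of 17 tested genes lower in GFP_plus (76.5%, all genes 27.6%) and 0 higher. Its median was -0.29. On the deposited scale the subunits of its catalytic head and central stalk were lower. Atp5a1 and Atp5b, the alpha and beta subunits, differed by -0.51 and -0.43, and Atp5c1, Atp5d and Atp5e, the gamma, delta and epsilon subunits, by -0.55, -0.64 and -0.29. Atp5a1 read 11.61, 11.73 and 11.69 in GFP_min and 11.21, 11.12 and 11.18 in GFP_plus, a clear gap on a narrow spread, but turned to 0.027 with ribosomal centring. Under that centring Atp5b and Atp5e turned to 0.11 and 0.24, and none of these 5 genes was called lower. Atp5o, the subunit that joins the head to the outer stalk, read 10.13, 10.23 and 10.25 against 9.40, 9.40 and 9.45. It was 1.73-fold lower (adjusted p = 1.3e-05), in 1 of its 2 tested probe sets.

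Subunit c forms the rotating ring in the membrane, and its gene Atp5g1 had the largest fall of the structural subunits. Atp5g1 read 9.65, 9.82 and 9.66 in GFP_min and 8.50, 8.33 and 8.48 in GFP_plus, 2.42-fold lower (log2 -1.27, SE 0.09, adjusted p = 2.7e-06). Atp5g2 read 10.27, 10.16 and 10.09 against 9.32, 9.17 and 9.39, 1.84-fold lower (log2 -0.88, SE 0.08, adjusted p = 2.5e-05). Atp5g3 read 12.49, 12.53 and 12.51 against 12.34, 12.11 and 12.35, 1.19-fold lower (log2 -0.25, SE 0.06, adjusted p = 0.011). In each of the 3 genes the groups were apart, with the smallest gap in Atp5g3. The Atp5g3 call was lost without the intensity trend (adjusted p = 0.0733), and its difference was 0.29 with ribosomal centring, where Atp5g1 and Atp5g2 remained lower at -0.74 and -0.34. Whether the 3 genes differ from each other in their fall was not tested. The uncalled genes of the complex, Atp5k, Atp5l, Atp5md and Atp5pb, lay between -0.12 and 0.08. For Atp5k both other tested probe sets were called lower (-0.29 and -0.25, adjusted p = 0.0082 and 0.013), and for Atp5pb, at 0.08, the other one was (-0.17, adjusted p = 0.011).

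**Figure D3:**
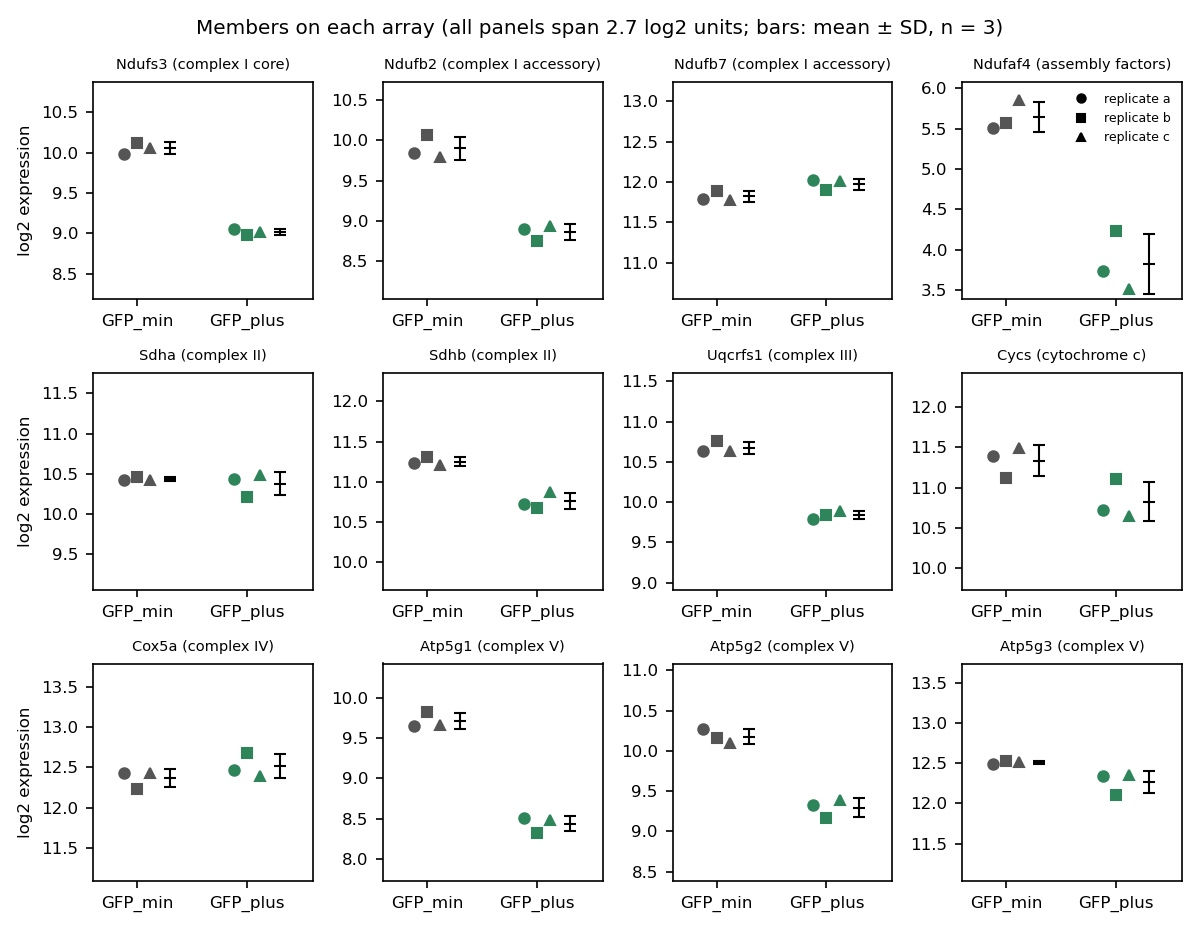
Log2 expression of 12 members on each array, with replicates a, b and c as separate symbols, grey for GFP_min and green for GFP_plus, and bars for mean and SD (n = 3). All panels span the same number of log2 units. The groups are far apart for Ndufs3, Ndufb2, Ndufaf4, Uqcrfs1, Atp5g1 and Atp5g2, and overlap for Sdha and Cox5a.

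Some falls were called under every scaling run. A set of 12 members was lower, with an adjusted p under 0.05, on the deposited scale and under all 4 other scalings. This is 14.1% of the tested members, near the 11.1% of all tested genes that met the same rule, so the count shows nothing particular to the members. They were Ndufs3, Ndufs8, Ndufa9, Ndufa10 and Ndufb2 of complex I, the assembly factors Ndufaf4, Ndufaf5 and Ndufaf7, Uqcrfs1 of complex III, and Atp5g1, Atp5g2 and Atp5o of complex V. With ribosomal centring, the scaling least favourable to a fall, they differed by -0.23 (Ndufa9) to -1.29 (Ndufaf4). That centring alone called the same 12 members lower, so the remaining scalings add no further check. None of the 12 belongs to complex II or IV. They were picked by their values, so this is a description. Ndufaf5 among them lay near the array medians in GFP_plus, and its call is not taken as support. With poly-A centring the p-values are too small, since the fit took almost the same spread for every probe set, and only the direction is taken from it.

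On the deposited scale, the size of the fall went with the signal of the probe set. Below a mean of 6 log2 units 7 of 9 members were lower (median -0.71), from 6 to 10 it was 14 of 18 (-0.62), and from 10 to 11 it was 19 of 24 (-0.41). From 11 to 12, 12 of 19 were lower (-0.23), and at 12 or more 6 of 15 (-0.11). Over all tested genes of the same classes the shares lower were 25.6%, 31.7%, 25.5%, 22.6% and 21.0%, with medians between -0.043 and 0.12. So on this scale the members' share was above that of all genes in each class, while the members' medians came nearer to 0 in the brighter ones. The classes were not drawn up under the other scalings. The dimmest class held the assembly factors Ndufaf1, Ndufaf2, Ndufaf4, Ndufaf5 and Ndufaf6, beside Ndufb1, Cox7c, Cox6a2 and Cox6b2. Signal and kind of gene therefore cannot be told apart there.

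**Figure D4:**
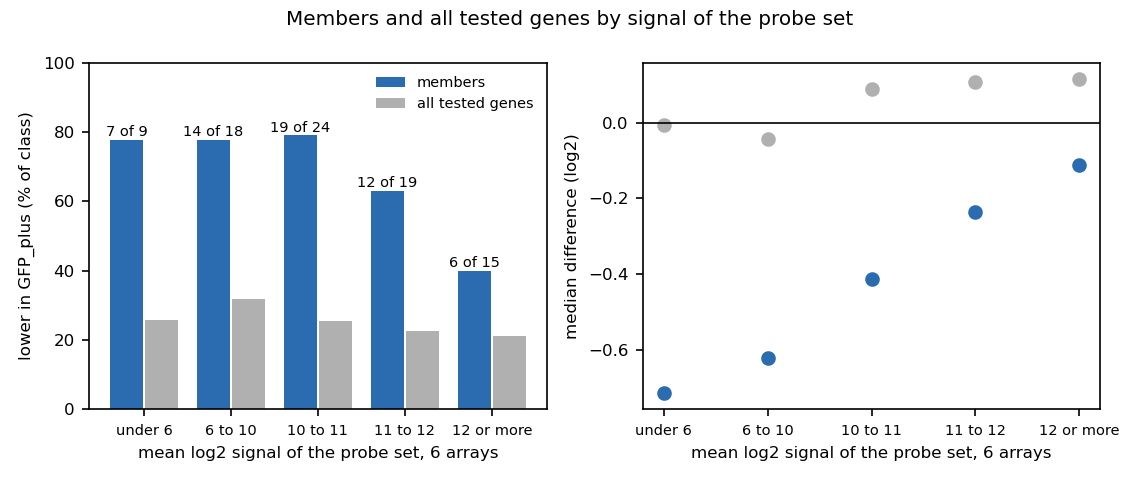
Left, percent of tested members (blue, with counts) and of all tested genes (grey) lower in GFP_plus, by the mean log2 signal of the probe set over 6 arrays. Right, the median difference of the same classes (GFP_plus minus GFP_min, log2). The members go from a median of -0.71 in the dimmest class to -0.11 in the brightest, while all tested genes stay between -0.043 and 0.12.

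The subunits encoded in mitochondrial DNA were represented by 1 probe set, for ND5, a proton-pumping core subunit of complex I. ND5 read 12.25, 12.01 and 12.11 in GFP_min and 11.18, 11.27 and 11.36 in GFP_plus. It was 1.80-fold lower with no overlap (log2 -0.85, SE 0.07, adjusted p = 1.0e-05). The difference ran from -1.26 to -0.32 over the 4 other scalings and was called in each.

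Genes that build or feed the chain, on lists outside the member rule, were more often lower than higher on the deposited scale. Of 38 tested assembly factors other than Ndufaf, 21 were lower (55.3%) and 2 higher (5.26%), against 27.6% and 21.0% of all tested genes. Their median was -0.36, or 0.18 with ribosomal centring. Uqcc2, an assembly factor of complex III, read 8.44, 8.89 and 8.42 against 6.50, 6.48 and 6.08 (log2 -2.23, adjusted p = 3.8e-06), and Sdhaf4, an assembly factor of complex II, differed by -1.47. Cox17, the copper chaperone of complex IV, was higher instead on the deposited scale, at 11.63, 11.63 and 11.58 against 12.05, 12.04 and 12.03.

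Of 24 genes for electron feeding and carriers, 12 were lower and 2 higher, where 27.6% of all tested genes were lower and 21.0% higher. Their median was -0.36, or 0.18 with ribosomal centring. With that centring 5 were lower and 8 higher, where 11.1% of all tested genes were lower and 68.6% higher. Slc25a4, a carrier that trades ADP for ATP across the inner membrane, read 9.73, 9.91 and 9.75 in GFP_min and 5.88, 6.07 and 5.51 in GFP_plus. Slc25a4 thus fell by 3.98 on the log2 scale (adjusted p = 2.8e-08), more than any tested member. Its paralog Slc25a5 differed by -0.69, with 5 of 8 tested probe sets called lower, and Etfa, which brings electrons from fatty acid oxidation, by -0.81.

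Known regulators of the chain did not move as a group on the deposited scale. Of 11 tested, 3 were lower (27.3%) and 2 higher (18.2%), near the 27.6% and 21.0% of all tested genes. Their median was 0.10, or -0.31 with poly-A centring and 0.63 with ribosomal centring. With ribosomal centring 9 of 11 were higher and 1 lower, where 68.6% of all tested genes were higher and 11.1% lower. Ppargc1b, a coactivator of mitochondrial genes, was at least 1.95-fold lower, taking the array medians as the floor of GFP_plus. Ppargc1b had passed the filter through GFP_min alone, the group where it was high, so its call is not taken as support. Pprc1, a related coactivator, differed by -0.77 (adjusted p = 0.0030), and Hif1a, the oxygen-sensing factor, by 0.31 on the deposited scale (adjusted p = 0.029).

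Promoter windows of 300 bases, 250 before and 50 after the start, were given for 75 of the 92 members and 27025 genes in the RefSeq table. On both strands, the NRF1 motif GCGCANGCG was found in 28.0% of members, against 7.03% of all genes and 15.4% of the tested genes. The ETS motif CCGGAAG, bound by GABP, was found in 25.3% of members and 21.0% of tested genes, and the YY1 motif AAGATGGCG in 9.33% and 3.82%. For the ERR motif TCAAGGTCA the shares were 2.67% and 0.375%, or 2 members, for the SP1 motif GGGCGG 48.0% and 67.3%, and for the E-box CACGTG 8.0% and 11.9%. NRF1 matches stood in 27.1% of the 48 lower members with a window and in 30.4% of the 23 tested members that were not lower. ETS matches stood in 20.8% and 39.1%. These shares were not tested and describe letters, not binding.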

How the data were processed

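From each sample 100 ng of total RNA (RNeasy Micro) was labelled with a 3′ IVT kit, per the labels' protocols. The authors deposited log2 expression values of 45101 probe sets on 6 arrays, made with GCRMA per the submitters' processing notes. Its settings and version are not given in the sources used. The log2 scale was inferred from the range of the values. Probe sets were named from the platform annotation: 34945 had 1 symbol, 932 several and 9160 none. Array medians were 2.82 to 2.88. Arrays correlated at 0.996 to 0.997 within groups and 0.978 to 0.982 between them, and their number limits the precision.

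The 22956 probe sets past the filter, without 64 control probe sets, were fitted with limma 3.58.1 in R 4.3.3 (lmFit, eBayes, intensity trend). P-values were adjusted by Benjamini-Hochberg over all of them, with a threshold of 0.05. Each adjusted p and SE comes from this fit, except where another setting is named, for which limma was run again. The procedure was tried on simulated data with independent noise and changes in few probe sets, a simpler case than these arrays. Complexes, members, gene lists and motifs were chosen with earlier results of these data known. Named were the members of complexes II and III, Cycs, the tissue-restricted isoforms with their partners, the Atp5g genes, up to 5 lower and 3 higher genes with the smallest adjusted p in each other group, and up to 3 per other list. The other members named beside these were chosen after their values were seen. Alternatives changed the filter, the trend, array weights, scaling, the probe sets of a gene, the replicate letter as a block and each array left out. Promoter sequences are from RefSeq, GRCm38.p6. Figures used matplotlib 3.10.9 in Python 3.11.15.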

Additional observations from a re-analysis of the deposited data

How the results depend on the processing

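Scaling moved the results most. Centring on tested probe sets gave 37 members lower and 7 higher (all genes 19.3% and 41.4%), ribosomal centring 12 and 41 (11.1% and 68.6%), and poly-A centring 85 and 0 (55.8% and 3.89%). Lower counts stayed within 1.5 times of 58 under the remaining alternatives, where 15.8% to 28.4% of all genes were lower and 12.1% to 25.0% higher. Higher members numbered 0 without the filter, without the trend, with quantile normalization, with the mean of probe sets and with the replicate block, 2 with array weights, and 0 to 2 with an array left out. Under the 3 centrings in this order, the medians were -0.16, 0.17 and -0.77 for tested members, -0.19, 0.15 and -0.79 for complex I, -0.50, -0.17 and -1.11 for assembly factors, -0.10, 0.23 and -0.71 for complex II, -0.16, 0.17 and -0.77 for complex III, -0.032, 0.30 and -0.64 for complex IV, and -0.092, 0.24 and -0.70 for complex V. Assembly factors gave -0.60 with quantile normalization, and complex V -0.33. With the mean of probe sets complexes II, IV and V gave -0.13, -0.20 and -0.33. Complex IV gave -0.055 without the filter and -0.20 with array weights. Leaving out an array gave medians of -0.40 to -0.32 for tested members, -0.80 to -0.64 for assembly factors, -0.45 to -0.32 for complex III and -0.27 to -0.15 for complex IV. The cause was not tested, except that every centring shifts all genes alike.

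With ribosomal centring 56 tested members below 0 as deposited turned positive, 34 of them among the 58 called lower. Among the genes named by the stated rule and called on either of these scales they were Ndufs7 0.22, Ndufv2 0.029, Sdha 0.48, Sdhb 0.047, Sdhc 0.10, Sdhd 0.36, Cyc1 0.0059, Uqcrb 0.22, Uqcrc1 0.097, Uqcrc2 0.33, Uqcrh 0.23, Uqcrq 0.17, Cycs 0.027, Cox4i1 0.26, Cox6a1 0.42, Cox6a2 0.50, Cox6b1 0.48, Cox6b2 0.051, Cox7a2l 0.20, Cox8a 0.30, Ndufa4 0.068, Atp5a1 0.027 and Atp5g3 0.29. Other members named beside these also turned positive, such as Ndufs1 (0.30), Ndufb3 (0.25) and Atp5e (0.24). Cox6b1 gave 0.15 with median centring. With poly-A centring Ndufb7 and Cox7a2 gave -0.25 and -0.37. The replicate block left 55 members lower, all among the 58; Uqcrc2, Cox5b and Cox6c lost their call. The letters did not pair the arrays: deviations of same-lettered arrays correlated at -0.18, -0.30 and -0.22, and other pairs at -0.015 to 0.24. Dim members near the array medians, and members on probe sets shared with other genes, are limited or not covered.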

Other observations

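Genes that bring nuclear encoded subunits into mitochondria were more often lower than higher in GFP_plus on the deposited scale. Of 21 tested protein import genes 13 were lower in GFP_plus (61.9%) and 1 higher (4.76%), against 27.6% and 21.0% of all tested genes. The median was -0.36, or 0.18 with ribosomal centring. Timm10, a small chaperone of the intermembrane space, read 6.48, 6.76 and 6.37 in GFP_min and 4.24, 4.08 and 3.85 in GFP_plus, a difference of -2.48 (adjusted p = 1.8e-06). Gfer, the sulfhydryl oxidase of the same compartment, differed by -2.43, and Timm17a, part of the inner membrane channel, by -1.38. In each of these genes all GFP_plus arrays lay below all GFP_min arrays.

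Of 12 tested genes for the expression and upkeep of mitochondrial DNA, 4 were lower (33.3%) and 2 higher (16.7%). These shares were near the 27.6% and 21.0% of all tested genes. The median was -0.23, or 0.30 with ribosomal centring. Polrmt, the mitochondrial RNA polymerase, read 5.56, 4.91 and 4.85 against 3.28, 3.50 and 3.35 (log2 -1.73, adjusted p = 6.5e-05). Its initiation partners Tfb2m and Tfam differed by -1.43 and -0.88, with 1 of 2 tested probe sets of Tfam called lower. Some markers of other cells the gate could hold differed too. Of 7 basophil and mast cell markers 6 were higher and 1 lower in GFP_plus (median 1.62). Of 5 B cell markers 1 was lower, and of 6 T and NK cell markers 2 were lower and 1 higher. Beside the 27.6% lower and 21.0% higher of all tested genes, these few B, T and NK cell markers do not stand apart as sets. Both tested eosinophil markers were higher (median 2.30), as were both tested erythroid markers (0.55). Their part in the respiratory chain values was not tested.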
